A study of Mus musculus with 4 samples.

Results

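Pleiotrophin and midkine are a pair of small secreted growth factors that share a family of cell-surface partners. The 6 genes described here encode both growth factors (Ptn and Mdk) and 4 of their receptors, the phosphatase receptor Ptprz1, the kinase receptor Alk and the heparan sulphate proteoglycans Sdc1 and Sdc3. They were selected by name from the 43346 genes in the files, with their counts in these libraries already known, so every level and fold given for them is a description and none of them was tested. Each was compared between the lateral nasal process (LNP), the medial nasal process (MNP), the maxillary process (Mx) and the mandibular process (Md) of the mouse face at e11.5, in days of embryonic development.

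The 4 samples were freshly dissected wild-type tissue of mixed cell types, with 1 library of stranded, ribosome-depleted total RNA per process. LNP and MNP surround the nasal pit, and Mx and Md are the upper and lower parts of the first pharyngeal arch, the segment that forms the jaws. Which strain these embryos had, and how many were dissected per library, is not stated in the labels or methods. The medial nasal sample carries the abbreviation of the lateral nasal process in its tissue label, although its title and the rest of that label name the medial nasal process.

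Pleiotrophin and midkine bind heparin and the sulphated sugar chains of proteoglycans. At the cell surface pleiotrophin binds the chondroitin sulphate chains and core protein of PTPRZ1 and lowers its phosphatase activity, which raises tyrosine phosphorylation of the phosphatase's substrates. Syndecans present the factors on heparan sulphate, and syndecan-3 was described in rodent neurons as a pleiotrophin receptor for neurite outgrowth. ALK is a receptor tyrosine kinase whose ligands were first proposed to be pleiotrophin and midkine and later the ALKAL proteins. In embryos, both growth factors are known from epithelia, mesenchyme and the developing nervous system, and midkine was first isolated as a gene induced by retinoic acid.

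The coding sequences of the growth factors are shown because they carry the family's signature, a series of cysteine codons in the N-terminal domain, most of which can be aligned between the genes. The capitals mark the 6 cysteine codons of each stretch, in which codons are counted from the start codon and the strand is the coding one. The Ptn stretch covers codons 47 to 89 (chr6:36743349-36743477, minus strand) and the Mdk stretch codons 34 to 71 (chr2:91931118-91931231, minus strand), both in GRCm38 and each within 1 exon.
Ptn: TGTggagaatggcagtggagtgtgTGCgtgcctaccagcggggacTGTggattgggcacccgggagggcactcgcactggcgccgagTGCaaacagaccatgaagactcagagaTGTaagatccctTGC
Mdk: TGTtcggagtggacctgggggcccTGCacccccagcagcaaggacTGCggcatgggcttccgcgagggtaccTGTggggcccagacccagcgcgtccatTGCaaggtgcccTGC
Over their whole coding sequences of 168 and 140 codons, 137 codons of Ptn and Mdk were aligned. Of these, 82 (59.9%) coded for the same residue, but only 44 were the same codon. Each gene had 10 cysteine codons, of which 9 were aligned with each other. Lysine and arginine, the basic residues that contact heparin, took 21.4% of the codons in each gene. No stretch of 50 bases, the length of the reads, was shared between the transcripts of Ptn and those of any other gene, and 2 of 1325 such stretches of Mdk were shared with its pseudogene Mdk-ps1.

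The 6 genes lie apart in the genome, except that Ptn and Ptprz1 share a chromosome. In GRCm38, Ptn (ENSMUSG00000029838.8) spans chr6:36714929-36810220 on the minus strand and Mdk (ENSMUSG00000027239.10) chr2:91929805-91932297 on the minus strand. Ptprz1 (ENSMUSG00000068748.4) spans chr6:22875502-23052916 on the plus strand and Alk (ENSMUSG00000055471.6) chr17:71868972-72604627 on the minus strand. Sdc1 (ENSMUSG00000020592.10) spans chr12:8771323-8793715 and Sdc3 (ENSMUSG00000025743.10) chr4:130792537-130826319, both on the plus strand. The values below are sums over each gene's annotated transcripts, 1 for Ptn, Ptprz1 and Alk, 4 for Mdk and 5 each for Sdc1 and Sdc3.

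Each library held 13216161 to 16163874 counts, and 21779 to 22197 genes had at least 1 count. CPM values are counts divided by a library total that was scaled with TMM (edgeR's trimmed mean of M values), times 1000000. The TMM factors lay between 0.985 and 1.02. Because each process had 1 library, the 95% intervals below cover counting error only, and variation between embryos or dissections is not known. The levels of 4 regional genes were looked up to check the labels. Hand2, a factor of the ventral arch, reached 103 CPM in Md and at most 1.32 CPM elsewhere. Alx1, a factor of the frontonasal skeleton, stood at 267 and 266 CPM in LNP and MNP, against 65.9 CPM in Mx and 39.0 CPM in Md. Pax7 was highest in LNP, at 113 CPM, and Barx1, a factor of the arch mesenchyme, was highest in Mx and Md, at 119 and 120.0 CPM. These genes separate nasal from arch tissue and Md from Mx, but do not by themselves settle which nasal library is the lateral and which the medial, the point on which the tissue label is at odds with itself.

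Pleiotrophin was the member that differed most between the processes among those above 5 CPM. Ptn had 4423 counts in LNP, 1616 in MNP, 4445 in Mx and 3740 in Md, which is 272, 119, 293 and 278 CPM. The MNP library was low and the other 3 lay between 272 and 293 CPM. These are levels in whole tissue, in which fewer cells of a type and less RNA per cell cannot be told apart. LNP stood 2.28-fold above MNP (95% counting interval 2.15 to 2.41). MNP stood at 0.408 of the Mx level (0.385 to 0.432) and at 0.430 of the Md level (0.406 to 0.456). The remaining pairs were close, with 0.930 for LNP over Mx (0.892 to 0.970), 0.980 for LNP over Md (0.938 to 1.02) and 1.05 for Mx over Md (1.01 to 1.10). In decreasing order the levels were thus Mx, Md, LNP and MNP, and the neighbours Md and LNP were not distinguishable at this depth. The order of Mx and Md depended on the processing, since Mx over Md came to 0.996 with the length trend described below removed.

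**Figure D1:**
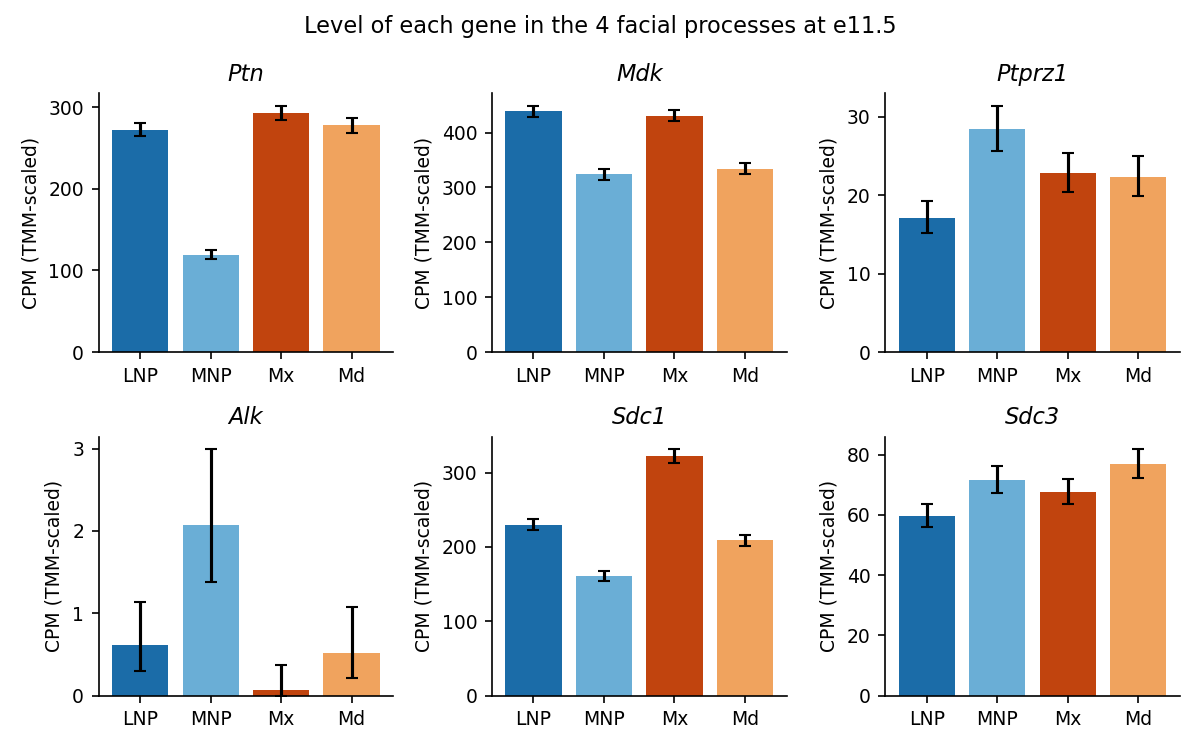
Level of each of the 6 genes in TMM-scaled CPM (y axes, each starting at 0 with its own scale) in the LNP, MNP, Mx and Md libraries, with bars for the single library of each process and error bars for the exact Poisson 95% counting interval. Ptn was low in MNP (119 CPM against 272 to 293 CPM), Sdc1 was highest in Mx (322 CPM), and Alk stayed at or below 2.07 CPM.

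A gene was counted as apart between 2 libraries where the higher reached 5 CPM and log2(CPM + 0.5) differed by at least 1, a 2-fold difference. Between LNP and MNP this held for 1 of the 6 members, Ptn, beside 2.67% of all genes at 5 CPM or more in either library. Between MNP and Mx it held for Ptn and Sdc1, beside 5.14% of genes, and between MNP and Md for Ptn alone, beside 5.47%. None of the 6 was apart between LNP and Mx (2.89% of genes), between LNP and Md (4.96%) or between Mx and Md (2.75%). Ptn also lay in MNP at least 2-fold below each of the other 3 libraries, which 16 of 11047 genes (0.145%) did. Since Ptn was named for study with these levels known, these shares place it among the other genes and nothing more.

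Midkine was the more abundant growth factor in every library and the more even. Mdk had 7123 counts in LNP, 4379 in MNP, 6543 in Mx and 4503 in Md, or 438, 324, 431 and 334 CPM. LNP and Mx formed the higher pair, MNP and Md the lower, and no value came near 2-fold from another. LNP was 1.35-fold above MNP (1.30 to 1.41) and 1.31-fold above Md (1.26 to 1.36). Mx was 1.29-fold above Md (1.24 to 1.34). The higher pair did not differ beyond counting error (LNP over Mx 1.02, 0.984 to 1.05), nor did the lower pair (MNP over Md 0.968, 0.929 to 1.01).

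A trend with transcript length over all genes ran in the same direction as the Mdk split into LNP and Mx against MNP and Md. RSEM used 772 bases for Mdk, and of 785 protein-coding genes below 1000 bases, 88.4% were higher in LNP and Mx than in MNP and Md, by a median of 0.21 on the log2 scale. Mdk's own difference was 0.40, which 11.6% of those short genes reached. Among 2831 genes above 4000 bases the median difference was -0.10. When the length trend was removed, an alternative chosen after seeing the data, Mdk in LNP over MNP came to 1.15 and in Mx over Md to 1.12, against 1.35 and 1.29 without this step. Ptn in LNP over MNP came to 2.14, against 2.28, which lies below the counting interval of the reported fold. The part of the length trend in the Mdk levels was not tested.

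**Figure D2:**
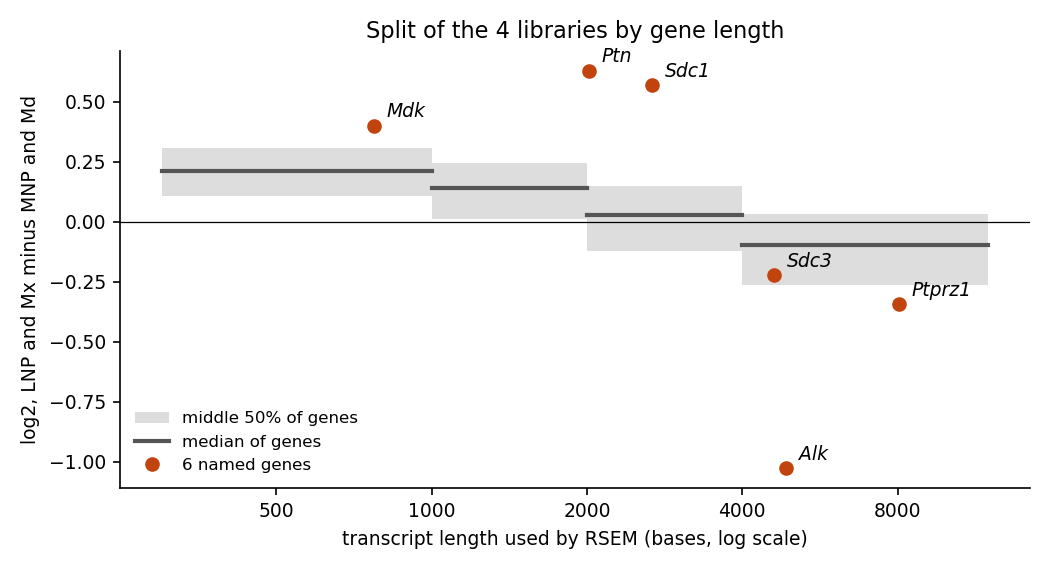
Mean log2(CPM + 0.5) of LNP and Mx minus that of MNP and Md (y axis) against the transcript length used by RSEM in bases (x axis, log scale); grey bands and lines give the middle 50% and the median of protein-coding genes in 4 length classes, and points the 6 genes. The class medians run from 0.21 below 1000 bases to -0.10 above 4000 bases, with Mdk at 0.40, Ptn at 0.63 and Alk at -1.03.

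The balance of the growth factors within a library does not depend on scaling between libraries. In TPM, the deposited measure of transcript abundance that is corrected for length, Mdk stood at 621, 451, 579 and 462 TPM in LNP, MNP, Mx and Md, and Ptn at 126, 54.4, 129 and 126 TPM. Mdk transcripts thus outnumbered Ptn transcripts 4.92-fold in LNP, 8.30-fold in MNP, 4.48-fold in Mx and 3.66-fold in Md. MNP had the highest Mdk to Ptn ratio and Md the lowest. Together the factors reached 747 TPM in LNP, 505 TPM in MNP, 708 TPM in Mx and 589 TPM in Md, of which Ptn made up 16.9%, 10.8%, 18.3% and 21.4%. Among 21474 protein-coding genes, Mdk ranked between 115 and 139 by TPM, and Ptn between 412 and 448 in 3 libraries but 1048 in MNP.

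From the counts, the Ptn to Mdk ratio was 0.621 in LNP, 0.369 in MNP, 0.679 in Mx and 0.831 in Md. The ratio in LNP was 1.68 times that in MNP (1.57 to 1.80). The ratio in MNP was 0.543 of that in Mx (0.507 to 0.582) and 0.444 of that in Md (0.413 to 0.478). Counting error did not cover any of the 6 pairwise differences, of which the smallest was LNP over Mx at 0.914 (0.866 to 0.965).

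**Figure D3:**
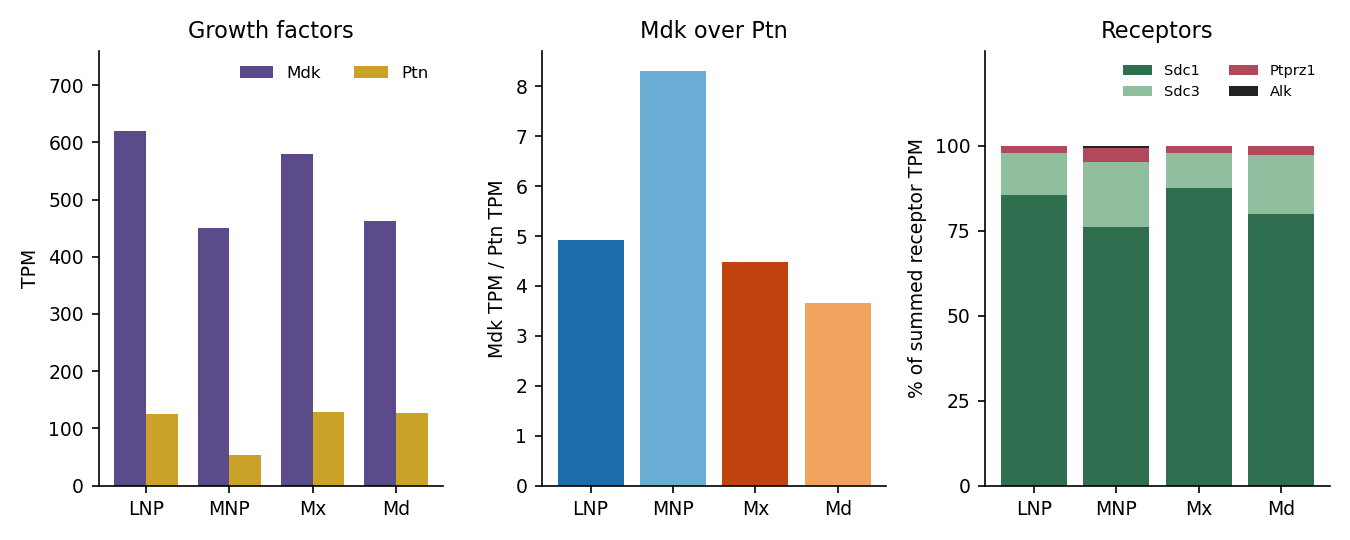
Left, Mdk and Ptn in TPM (y axis, from 0); middle, Mdk TPM over Ptn TPM; right, share of each receptor gene in the summed TPM of Ptprz1, Alk, Sdc1 and Sdc3, in percent, each for the single LNP, MNP, Mx and Md libraries. The Mdk to Ptn ratio was 8.30 in MNP and 3.66 to 4.92 elsewhere, and Sdc1 held 76.2 to 87.6% of the receptor sum.

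Syndecan-1, a transmembrane heparan sulphate proteoglycan known from epithelia and from condensing mesenchyme, was the most abundant receptor gene. Sdc1 had 3737 counts in LNP, 2175 in MNP, 4892 in Mx and 2812 in Md, which is 230.0, 161, 322 and 209 CPM. Mx was the highest and MNP the lowest, and no interval overlapped a neighbour's. MNP stood at 0.499 of the Mx level (0.474 to 0.525), and with the added 0.5 CPM this difference was 1.001 on the log2 scale, just past the threshold of 1. Mx was 1.54-fold above Md (1.47 to 1.62), and LNP was at 0.714 of Mx (0.684 to 0.745). LNP was 1.43-fold above MNP (1.36 to 1.51) and 1.10-fold above Md (1.05 to 1.16), and MNP was at 0.770 of Md (0.728 to 0.815). Under other scalings the MNP level lay between 0.495 and 0.520 of the Mx level, so that the 2-fold rule was met under some and missed under others.

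Syndecan-3, the pleiotrophin receptor of neurons, was the second receptor gene by TPM. Sdc3 had 968 counts in LNP, 968 in MNP, 1028 in Mx and 1036 in Md, or 59.6, 71.5, 67.7 and 76.9 CPM. LNP was the lowest, at 0.775 of Md (0.709 to 0.846), 0.833 of MNP (0.761 to 0.911) and 0.880 of Mx (0.805 to 0.962). MNP did not differ beyond counting error from Mx (1.06, 0.967 to 1.16) or from Md (0.930, 0.851 to 1.02). On the opposite strand the Sdc3 gene overlaps Gm26716, which had 14 to 25 counts per library and shared 318 of the 5937 50-base stretches of Sdc3 transcripts.

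PTPRZ1, the chondroitin sulphate proteoglycan and receptor phosphatase to which both factors bind, was expressed at a low level. Ptprz1 had 278 counts in LNP, 384 in MNP, 346 in Mx and 301 in Md, giving 17.1, 28.4, 22.8 and 22.3 CPM. The order differed from that of Ptn, with MNP highest and LNP lowest. LNP was at 0.603 of MNP (0.515 to 0.705), 0.751 of Mx (0.639 to 0.882) and 0.766 of Md (0.648 to 0.904). MNP was 1.25-fold above Mx (1.07 to 1.44) and 1.27-fold above Md (1.09 to 1.48), and Mx and Md were not distinguishable at this depth (1.02, 0.871 to 1.19). Because Ptn and Ptprz1 ran in opposite directions between the nasal libraries, 15.9 counts of Ptn stood against each count of Ptprz1 in LNP and 4.21 in MNP. The LNP ratio was 3.78 times that of MNP (3.20 to 4.47), while Mx and Md stood at 12.8 and 12.4. RSEM used 8068 bases for Ptprz1, and the trend with length ran in the same direction as its difference between LNP and MNP. With that trend removed, Ptprz1 came to 0.679 for LNP over MNP and to 1.10 for MNP over Mx, both within their counting intervals. The ratio of 3.78 was not recomputed in this way, and the part of the length trend in it was not tested.

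ALK transcripts were rare. Alk had 10 counts in LNP, 28 in MNP, 1 in Mx and 7 in Md, and with 0.615, 2.07, 0.0659 and 0.520 CPM it stayed below 5 CPM in every library. Most of its reads were in MNP, and Mx held a single read. MNP was 3.98-fold above Md (1.70 to 10.8), and LNP was at 0.297 of MNP (0.129 to 0.631). The MNP to Mx ratio of 31.4 rests on 1 read in Mx, and its interval ran from 5.19 to 1285. LNP and Md were not distinguishable at this depth (1.18, 0.407 to 3.67).

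**Figure D4:**
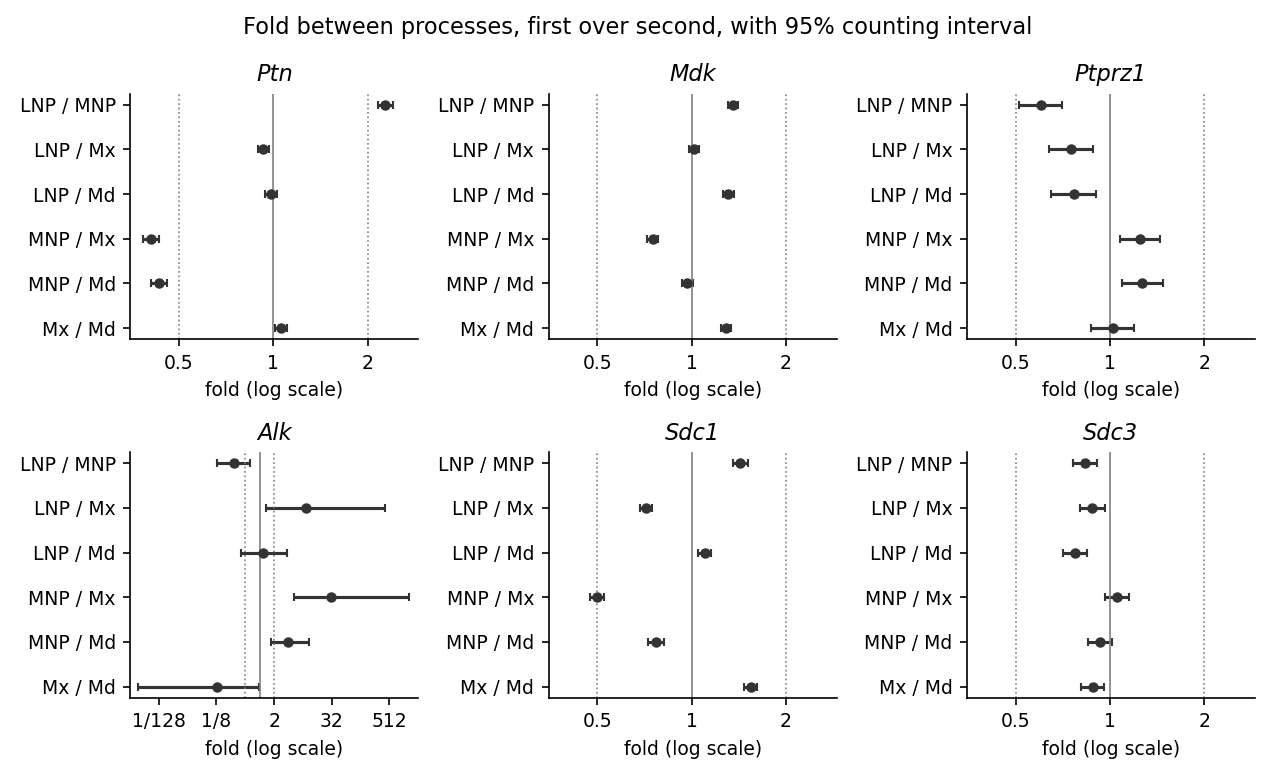
Fold between each of the 6 pairs of processes, first over second as written on the y axis, with points for the ratio of CPM and bars for the exact 95% counting interval (x axes on a log scale; dotted lines at 0.5 and 2; Alk has a wider axis). The 3 pairs with MNP lie outside the dotted lines for Ptn, the MNP over Mx pair lies on the line for Sdc1 (0.499), and the Alk interval for MNP over Mx runs from 5.19 to 1285.

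Per length, the 4 receptor genes summed to 91.7 TPM in LNP, 69.9 TPM in MNP, 121 TPM in Mx and 88.2 TPM in Md, in each case below the growth factors. Sdc1 made up 85.6%, 76.2%, 87.6% and 80.1% of this sum, and Sdc3 12.3%, 18.9%, 10.5% and 17.1%. Ptprz1 held 2.03% in LNP, 4.34% in MNP, 1.96% in Mx and 2.71% in Md, and Alk at most 0.53%. The Sdc1 to Sdc3 ratio in TPM was 6.97 in LNP, 4.03 in MNP, 8.36 in Mx and 4.68 in Md, so that MNP had the smallest share of Sdc1 and the largest of the other 3 receptors.

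Over the 4 processes, 2 of the 6 genes, Ptn and Sdc1, reached the 2-fold range between highest and lowest library, beside 9.69% of the 12406 genes at 5 CPM or more. The range, highest over lowest, was 2.45-fold for Ptn (Mx over MNP) and 2.004-fold for Sdc1 (Mx over MNP). It was 1.66-fold for Ptprz1 (MNP over LNP), 1.35-fold for Mdk (LNP over MNP) and 1.29-fold for Sdc3 (Md over LNP). The median gene had a range of 1.27-fold, and 93.3% of genes had a smaller range than Ptn, 90.3% than Sdc1, 83.9% than Ptprz1, 65.5% than Mdk and 54.8% than Sdc3. MNP was the low library for both genes. Without MNP none of the 6 was 2-fold apart over the remaining libraries, beside 6.49% of genes, and without Mx only Ptn was, beside 7.86%.

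**Figure D5:**
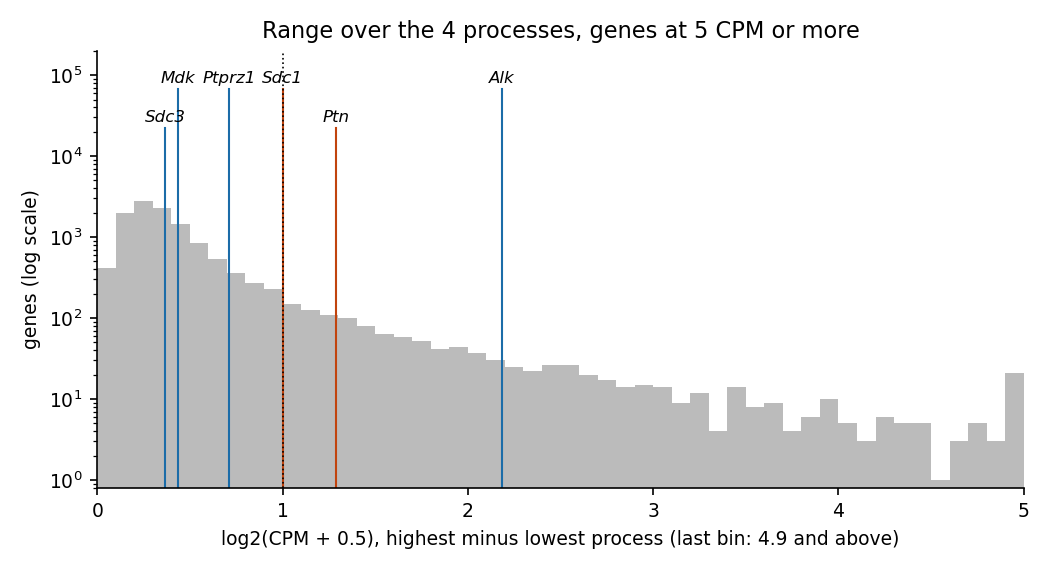
Number of genes (y axis, log scale) by the highest minus the lowest log2(CPM + 0.5) over the 4 libraries (x axis, bins of 0.1; dotted line at 1, the 2-fold rule) for the 12406 genes at 5 CPM or more, with lines for the 6 genes; Alk, below 5 CPM, is marked but is not among the counted genes. Ptn (1.29) and Sdc1 (1.001) reach the 2-fold line, and Ptprz1 (0.71), Mdk (0.44) and Sdc3 (0.37) lie left of it.

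Averaged over both nasal and over both first arch libraries, Ptn was lower on the nasal side by a log2 difference of -0.66 (counting interval -0.71 to -0.61), with both nasal values below both first arch values. The step from LNP to Md was within counting error (0.980, 0.938 to 1.02). With total counts LNP stood at 273.6 CPM and Md at 273.4 CPM, so that this separation was lost. LNP nevertheless differed from Mx and Md by little, so that the nasal mean was set mainly by MNP. Alk was higher on the nasal side by 1.16 (0.70 to 1.61) at its few reads. This value came to 0.41 in TPM, to 0.52 with 2 CPM added in place of 0.5 and to 1.96 with 0.1 CPM added. Sdc1 stood at -0.43, Sdc3 at -0.14, Ptprz1 at -0.03 and Mdk at -0.01, and for these 4 genes the nasal and first arch values overlapped. None of the 6 was 2-fold apart with both nasal libraries on one side, beside 1.52% of genes.

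The promoters of Ptn and Sdc1 are shown because these genes shared MNP as the lowest and Mx as the highest library. RefSeq gave a window for 5 of the 6 members, with no entry for Mdk. The printed parts are those of the 250 bases before the RefSeq start that lie outside the GENCODE gene, chr6:36810221-36810429 (minus strand) for Ptn and chr12:8771146-8771322 (plus strand) for Sdc1, in GRCm38. The capitals mark matches on either strand to the letters TATAA, as in a TATA box, to GGGCGG, known as the GC box, and to CCAAT, the motif bound by NF-Y.
Ptn promoter: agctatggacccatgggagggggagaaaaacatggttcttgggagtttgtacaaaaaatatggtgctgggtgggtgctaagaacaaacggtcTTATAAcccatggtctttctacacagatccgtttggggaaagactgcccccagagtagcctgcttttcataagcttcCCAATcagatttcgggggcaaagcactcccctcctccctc
Sdc1 promoter: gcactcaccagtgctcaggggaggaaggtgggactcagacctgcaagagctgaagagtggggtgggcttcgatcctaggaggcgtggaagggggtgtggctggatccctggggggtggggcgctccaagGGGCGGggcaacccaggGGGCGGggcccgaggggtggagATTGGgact
In the whole 250-base windows, Ptn and Sdc1 each held 1 CCAAT and a TTATAA, which reads as TATAA on both strands. Sdc1 also held 3 GC boxes. The TTATAA of Sdc1 and its GC box nearest the RefSeq start lie in the part not printed. The TTATAA lay at different places, much closer to the RefSeq start in Sdc1 than in Ptn. The CCAAT matches began 81 bases before that start in Ptn and 82 in Sdc1. Whether any of these motifs acts in these tissues was not tested. TATAA occurred in 22.8%, GGGCGG in 32.7% and CCAAT in 33.8% of 32851 windows of the same length. Ptprz1, Alk and Sdc3 held 2, 1 and 3 GC boxes and none of the other motifs. GC content was 52.0% for Ptn and 66.0% for Sdc1, against a median of 52.4%.

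The protein-coding genes with the pattern nearest to that of Ptn over the 4 libraries were Ccbe1, Ntf5 and Gxylt2, among 11514 genes. Their log2 values, centred on each gene's mean, differed from those of Ptn by a root mean square of 0.09, 0.09 and 0.10. Ccbe1, a secreted protein of lymphatic development, stood at 7.45, 3.55, 8.63 and 7.57 CPM in LNP, MNP, Mx and Md, far below the counts of Ptn. Nearest to Sdc1 were Mpped2, Pth1r and Coro1a, at root mean squares of 0.01, 0.05 and 0.06. Pth1r, the receptor for parathyroid hormone and its related protein, stood at 74.0, 53.2, 97.9 and 67.2 CPM. With 4 libraries such likeness is a description only.

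The wider set of ligands, partners and sugar-chain enzymes held 55 genes, of which 46 reached 5 CPM and 9 of these were 2-fold apart between highest and lowest library, beside 9.69% of all genes at 5 CPM or more. Their median range was 1.26-fold, beside 1.27-fold over all genes. Of the 9, 6 were highest in MNP and 3 in Md, and 3 were lowest in LNP and 6 in Md. The highest and lowest library was not counted over all genes 2-fold apart, so these numbers describe the set only.

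Among the other syndecans and glypicans, heparan sulphate proteoglycans like Sdc1 and Sdc3, 7 of 8 reached 5 CPM and 2 were apart. Gpc3, a glypican that restrains growth, was highest in Md at 891 CPM, against 365 CPM in LNP, 492 CPM in MNP and 547 CPM in Mx. Gpc6 had the same order, at 108, 146, 183 and 256 CPM in LNP, MNP, Mx and Md. By TPM, Gpc3 was the most abundant of the list with a mean of 237 TPM, followed by Gpc1 with 40.8 TPM. Sdc4 varied 1.43-fold.

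The ligands that bind ALK itself were scarce. Alkal2 was the only gene of its list to reach 5 CPM, with 5.97, 8.43, 4.48 and 2.15 CPM in LNP, MNP, Mx and Md, a range of 3.36-fold on the log2(CPM + 0.5) scale. Like Alk it was highest in MNP. Alkal1 had 0 counts in every library, which allows up to 0.185 to 0.223 CPM, and Ltk, the kinase related to ALK, had 2 counts in MNP and 0 elsewhere.

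Of 15 further binding partners, 12 reached 5 CPM and 2 were apart. Ncan, the brain proteoglycan neurocan, stood at 24.5 CPM in MNP and at 4.16 to 7.64 CPM elsewhere. Lrp2, an endocytic receptor of epithelia, stood at 51.2 CPM in LNP and 60.8 CPM in MNP, against 23.6 CPM in Mx and 13.0 CPM in Md. Nrp1, a co-receptor of semaphorins and VEGF, reached 107 CPM in Md, against 55.8, 65.2 and 79.2 CPM in LNP, MNP and Mx. The most abundant partners were Ncl, a nucleolar protein that binds both factors at the cell surface, with a mean of 180 TPM, and Vcan, the large proteoglycan versican, with a mean of 157 TPM. Neither was 2-fold apart.

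PTPRZ1 also binds adhesion and matrix proteins, and 5 of the 6 listed genes reached 5 CPM. Nrcam, a neural adhesion molecule, stood at 27.9 CPM in MNP and 11.7 CPM in LNP, against 4.87 and 4.68 CPM in Mx and Md. L1cam, another, stood at 24.2 CPM in MNP and at 5.57 to 13.6 CPM elsewhere. Tnc, the matrix protein tenascin-C, had another order, at 49.3, 95.6, 164 and 176 CPM in LNP, MNP, Mx and Md. Ptprg, the phosphatase most closely related to Ptprz1, was far more abundant than it, with a mean of 21.8 TPM, and varied 1.15-fold.

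The enzymes that build and trim the sugar chains had a median range of 1.24-fold for heparan sulphate and 1.19-fold for chondroitin sulphate, beside 1.27-fold over all genes. Of 12 heparan sulphate enzymes, 11 reached 5 CPM and 0 were apart, the widest range being 1.68-fold for Hs6st2, a 6-O-sulphotransferase, and 1.66-fold for Sulf1, an extracellular 6-O-sulphatase. Sulf2 and Sulf1 were the most abundant, with means of 95.4 and 50.9 TPM. Of 11 chondroitin sulphate enzymes, 10 reached 5 CPM and 1 was apart, the chain synthase Chsy3, at 8.65 CPM in MNP, 5.66 CPM in LNP, 2.70 CPM in Mx and 2.23 CPM in Md. Chsy1 and Dse led by TPM, with means of 25.1 and 21.7 TPM, and varied 1.05-fold and 1.23-fold.

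Marker genes of other cell types differed between the libraries. Those of forebrain and midbrain neuroepithelium summed to 62.2 CPM in MNP, against 15.4, 17.7 and 5.79 CPM in LNP, Mx and Md. Of these 9 genes, 6 reached 5 CPM and were apart, 5 of them highest in MNP, with Pou3f2 at 12.4 CPM there and Zic4 at 9.02 CPM. Emx2 was the exception, at 14.1 CPM in Mx. Neuronal markers likewise summed to 314 CPM in MNP, against 185, 152 and 59.7 CPM, with Tubb3, Stmn2 and Elavl4 leading. Ptprz1, Alk and the 6 genes of the wider set that were apart and highest in MNP shared the library where these sums were highest. These 6 were Ncan, Nrcam, L1cam, Lrp2, Alkal2 and Chsy3. Other genes were also highest in MNP without being 2-fold apart, among them Vcan, Lrp1 and Sulf1. Sdc3 was highest in Md, and Ptprz1 was lowest in LNP, where the neuronal sum was 185 CPM. The part of neural tissue in these levels was not tested.

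Mesenchymal markers summed to 3997 CPM in LNP, 4316 CPM in MNP, 4941 CPM in Mx and 4537 CPM in Md. Col3a1 and Col1a2 made up the largest part of these sums, at 1674 and 1231 CPM in MNP. Col3a1, Col1a2 and Prrx1 led this list. Individual markers differed, and 5 of 8 were apart. Col3a1 and Col1a2 were highest in MNP, Prrx2 and Msx1 were lowest in Md, Pdgfra was lowest in Mx and Col1a1 in LNP. Only Prrx1 and Twist1 of the 8 were lowest in MNP, as Ptn and Sdc1 were, at 121 CPM against 222, 263 and 159 CPM in LNP, Mx and Md for Twist1, and at 282 CPM against 379, 888 and 864 CPM for Prrx1. The part of mesenchyme in the Ptn and Sdc1 levels was not tested. All 8 mesenchymal markers are named here, also those that the rule for named genes does not pick. Cartilage markers summed to 594 CPM in MNP, against 237, 222 and 384 CPM in LNP, Mx and Md, most of it from Col2a1, at 406 CPM in MNP. Of the 4 that were apart, Col2a1 and Sox9 were highest in MNP, but Col9a1 and Matn4 in Md, at 94.4 and 5.12 CPM there against 69.0 and 2.81 CPM in MNP. Matn1 and Snorc were at 0 in every library.

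Epithelial markers summed to 420 CPM in LNP, 373 CPM in MNP, 346 CPM in Mx and 262 CPM in Md, and 6 of 10 were apart. Krt14, a keratin of basal epithelium, Krt5, Trp63 and Perp were highest in Mx and lowest in MNP, as Sdc1 was. Krt14 stood at 66.2 CPM in Mx and 23.8 CPM in MNP, and Krt5 at 47.9 and 22.4 CPM. Epcam, Cdh1, Esrp1 and Grhl2 were highest in LNP, with Epcam and Cdh1 at 65.1 and 57.2 CPM there, and Krt8 and Krt18 in MNP. All 10 epithelial markers are named here, also those that the rule for named genes does not pick. The part of epithelium in the Sdc1 levels was not tested. Erythroid markers summed to 4072 and 3793 CPM in LNP and Mx, against 2548 and 2809 CPM in MNP and Md, the same split as Mdk, led by Hbb-y, Hba-a1 and Hbb-bh1. Their part in the Mdk levels was not tested.

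Endothelial markers, led by Kdr, Cdh5 and Pecam1, lay between 230 and 268 CPM, and leukocyte markers, led by Csf1r, Cx3cr1 and C1qa, between 20.2 and 23.3 CPM. Skeletal muscle markers, led by Myh3, Actc1 and Tnnt1, summed to 174 CPM in Md and 57.1 CPM in Mx, against 5.85 and 6.43 CPM in LNP and MNP. Lens and pigment markers, led by Cryaa, Pmel and Cryba1, summed to 28.6 CPM in LNP and 9.15 CPM in Mx, against 1.03 and 1.04 CPM in MNP and Md, where Cryaa and Tyr were at 0.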

How the data were processed

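RNA-seq was analysed from 4 mouse libraries, 1 per facial process. The authors prepared TruSeq stranded Ribo-Zero libraries from DNase-treated RNA, sequenced single-end reads of 50 bases, aligned them to mm10 with STAR and quantified GENCODE M4 genes with RSEM 1.4.1 in the ENCODE pipeline for a single replicate. Reads that fit several genes are divided among them by RSEM. Expected counts, as deposited, carry no normalization, and the deposited TPM are corrected for transcript length.

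Expected counts of 43346 genes were rounded. Another 26344 entries without a gene ID, spike-ins included, held 1 to 5 counts per library and were left out. Symbols and positions came from GENCODE M21 on GRCm38, the build called mm10, and 884 IDs had none. TMM factors came from edgeR 4.0.16 and used each gene that reached 10 counts in any library. CPM were taken against the scaled totals, and log2 values after adding 0.5. At these depths 5 CPM equals 67.4 to 81.2 counts. Intervals are 95%: exact Poisson for levels, exact (Clopper-Pearson) conditional binomial for folds, conditional for odds ratios and delta-method for means of logs. Reads carried no molecular identifiers, so intervals and floors cover counting error only. With 1 library per process there is no replicate check and no p-value is given. Promoter windows came from RefSeq and coding sequence from GENCODE M21 transcripts.

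The 6 members, the pathway lists and the marker lists were chosen with earlier results of these data known. The result of 1 marker list is not reported here. From each pathway list, up to 3 genes with the largest range and up to 2 with the highest mean TPM were named, and from each marker list up to 3 by CPM and those at 0. For members with a 2-fold range, the 3 nearest genes by centred log2 pattern were named. Alternatives were DESeq2 1.42.0 size factors, total counts, TMM over protein-coding genes, TPM, posterior means, other pseudocounts, minima and folds, and, added after seeing the data, removal of the length trend and leaving out each library.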

Additional observations from a re-analysis of the deposited data

How the results depend on the processing

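The count of 2 members 2-fold apart (Ptn and Sdc1) was also found with DESeq2 size factors, posterior mean counts, a pseudocount of 0.1 CPM and a minimum of 20 CPM. It came to 1, Ptn alone, with total counts, TMM over protein-coding genes, deposited TPM, the length trend removed and a pseudocount of 2 CPM, and to 0 at 3-fold. It came to 3 with Alk at a minimum of 1 CPM or none, and to 3 with Ptprz1 at 1.5-fold. Leaving out each library in turn gave 0 to 2, with 0 without MNP and 1 without Mx. Over all genes the count was 1202 of 12406 (9.69%), against 2370 of 16146 (14.7%) at a minimum of 1 CPM, 2809 of 43346 (6.48%) with none, 467 of 8463 (5.52%) at 20 CPM, 586 (4.72%) at 3-fold, 2692 (21.7%) at 1.5-fold and 789 (6.49%) without MNP. Where the member count came to 1, it was 9.996% with total counts, 9.92% with protein-coding TMM, 8.44% in TPM, 9.87% with the length trend removed and 7.78% with a pseudocount of 2. With the length trend removed, Ptn came to 2.14 in LNP over MNP and to 0.436 in MNP over Mx, and the Ptn to Mdk ratio to 1.86 for LNP over MNP, 0.793 for LNP over Md, 0.480 for MNP over Mx and 0.889 for Mx over Md. The nasal minus first arch difference of Mdk was 0.030 with total counts, 0.032 in TPM and 0.045 with the length trend removed, against -0.01. That of Alk was 0.41 in TPM, 1.96 with a pseudocount of 0.1 and 0.52 with 2, against 1.16, since its counts are few. Of the alternative values of the pair folds, 205 lay within the counting interval of the reported fold and 11 outside it. Of these 11, 9 came with the length trend removed, where 27 stayed within it, and 2 in TPM. Each of the other alternatives left all 36 folds within it. No called fold changed direction, but shifts of this size could not have reversed a 2-fold difference. The Ptn fold of Mx over Md, which was not a called one, came to 0.996 with the length trend removed, against 1.05. Depth limits the statements on Alk. No paired analysis was possible because each process has 1 library.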
